A study of Mus musculus with 11 samples.

Results

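The ribbon synapse components followed here are 10 genes, Cacna1f, Cacna2d4, Cabp4, Ctbp2, Bsn, Pclo, Cplx3, Cplx4, Unc13b and Egflam, of the 47069 in the count tables. They were taken by symbol for their known place at the ribbon synapse, and the rule uses no measured value, although earlier results of these data were known when they were chosen. All 10 were among the 18188 genes that passed the filter on low counts. Bulk RNA-seq was done on mouse retina at postnatal days 4 and 8 (P4 and P8) in a control group labelled wild type and in a Brn3b-Kir2.1 group. Each group had 3 libraries, except wild type at P4, which had 2. By its title, the study concerned activity in the perinatal retina and the wiring of visual axons to nuclei outside image-forming vision.

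All mice were C57BL/6. Brn3b-Kir2.1 mice carry a Kir2.1-eYFP transgene, in which the CAG promoter and a floxed STOP cassette precede the human Kir2.1 cDNA, together with Brn3b-cre, which opens the cassette in retinal ganglion cells. Kir2.1 is an inward rectifier potassium channel that holds neurons near rest. The control is wild type in the genotype field and Brn3b-cre in the protocol, so whether controls carry the driver is not settled by the labels. The later age is P8 in the age field and P11 in the protocol, and it is called P8 here. The labels do not say whether the libraries of a group came from separate animals, so the p-values measure only the spread between these libraries.

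Ribbon synapses are the output synapses of rods, cones and bipolar cells, which signal with graded voltage and release glutamate continuously. The ribbon is a plate built mainly of RIBEYE, a product of Ctbp2. It tethers vesicles above a cluster of L-type calcium channels, and Bassoon anchors it to the membrane. In the mouse retina photoreceptor ribbons assemble and bipolar dendrites join them in the days before eye opening. Ganglion cells, where Brn3b-cre acts, receive input from bipolar ribbons and form no ribbons themselves.

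Counts assigned to genes ran from 9362215 to 12478838 per library. Although the source field names ganglion cells, markers of other retinal cells were abundant. The sum of 11 rod markers was 207 to 6463 CPM (gene counts scaled to a common library total by the TMM method), and the sum of 9 ganglion cell markers was 71.8 to 1110 CPM. Markers of pigment epithelium summed to 0.34 to 2.70 CPM in 10 libraries and to 15.8 CPM in Kir2.1 P8 replicate 2. Kcnj2, the mouse gene of Kir2.1, was at 2.45 to 17.2 CPM with overlap between the genotypes at both ages, and reads of the human cDNA cannot be assumed to count towards it, so it does not check the genotype labels. On the first principal component of all genes, the P4 libraries ran from -74.6 to -55.4 apart from wild-type P4 replicate 2 at -16.4, and P8 libraries from 37.8 to 54.0. The wild-type P8 libraries were spread from 74.6 (replicate 1) to -39.7 (replicate 3) on the other leading component. The same Kir2.1 P8 replicate 2 had counts in 31325 genes, against 22609 to 24591 in the other libraries.

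From P4 to P8, 8 of the 10 genes rose in Kir2.1 retina: all 3 calcium channel genes, Ctbp2, all 3 genes of vesicle priming and fusion, and Egflam. The rises ran from 1.53-fold for Ctbp2 to 24.6-fold for Cabp4. Of all genes tested, 16.7% changed between the ages in Kir2.1 retina and 7.93% rose. Pclo and Bsn, the large scaffold proteins of active zones in general, did not pass. In wild-type retina all 10 fold changes were above 0 (52.6% of all genes were), with a median log2 fold change of 1.24 against 0.03 for all genes, and 0 of 10 passed, where 4.39% of all genes did. By genotype, 0 of 10 passed at P4 and 0 of 10 at P8, where 0% of all genes did in each comparison.

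**Figure D1:**
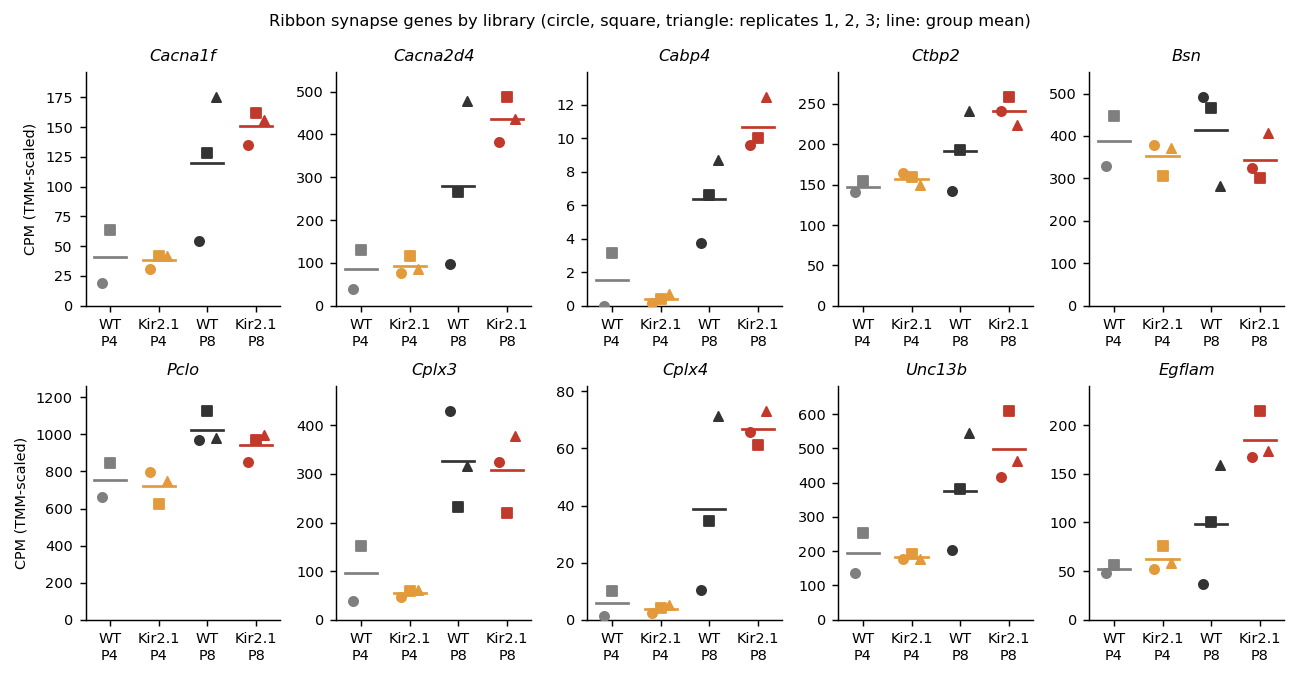
CPM of each ribbon synapse gene (linear axis from 0) in each of the 11 libraries, by group; symbols are replicates and lines are group means. Kir2.1 P8 libraries lie above Kir2.1 P4 libraries for every gene but Bsn, and wild-type P8 replicate 1 is the lowest P8 library for 7 genes.

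Cacna1f (ENSMUSG00000031142; chromosome X, 7607083 to 7635196, plus strand, in GRCm38 as all positions here) encodes the pore-forming subunit of the L-type calcium channel at photoreceptor ribbons. Its P4 level, in replicate order here and for each gene, was 19.2 and 63.5 CPM in wild type and 31.1, 42.1 and 41.7 CPM in Kir2.1. The P8 level was 54.8, 128 and 175 CPM in wild type, against 135, 162 and 156 CPM in Kir2.1. The Kir2.1 libraries of the ages did not overlap, whereas wild-type P8 replicate 1 lay below wild-type P4 replicate 2. The gene rose in Kir2.1 retina by 1.98 ± 0.42 (log2 fold change ± SE, edgeR adjusted p = 0.00755). In wild type the log2 fold change was 1.53 ± 0.48 (edgeR adjusted p = 0.100).

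Cacna2d4 (ENSMUSG00000041460; chromosome 6, 119236526 to 119352407, plus strand) encodes the auxiliary subunit that carries this channel to the terminal. Its P4 values were 39.9 and 130.05 CPM in wild type and 76.0, 116 and 85.8 CPM in Kir2.1. Its P8 values were 97.3, 265 and 479 CPM in wild type and 382, 487 and 436 CPM in Kir2.1. The order of the libraries was close to that of Cacna1f, with wild-type P8 replicate 1 again below wild-type P4 replicate 2. The gene rose in Kir2.1 retina by 2.23 ± 0.50 (edgeR adjusted p = 0.0101), and the wild-type log2 fold change was 1.72 ± 0.57 (edgeR adjusted p = 0.115).

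Cabp4 (ENSMUSG00000024842; chromosome 19, 4135423 to 4144033, minus strand) encodes a calmodulin-like calcium sensor that shifts the channel's opening to more negative voltages. It had the lowest mean level per length of the 10 in every group, though its range overlapped that of Cplx4 in wild-type P4. Its P4 counts were 0 and 37 in wild type, and 2, 5 and 8 in Kir2.1, so 1 wild-type library held most of the P4 reads. At P8 it reached 3.75, 6.62 and 8.69 CPM in wild type and 9.59, 10.002 and 12.5 CPM in Kir2.1. Both genotypes had P8 ranges above their P4 ranges. In Kir2.1 retina it rose by 4.62 ± 0.87 (edgeR adjusted p = 0.00402). In wild type the log2 fold change was 2.02 ± 0.86 (edgeR adjusted p = 0.220), and 131 exon bases, 3.72% of its exons, overlap Gpr152 on the other strand.

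Ctbp2 (ENSMUSG00000030970; chromosome 7, 132987563 to 133124354, minus strand) has separate starts for its products. RIBEYE, the ribbon's main structural protein, is made from a start inside the gene, and the shorter nuclear corepressor is made from starts farther upstream. In GENCODE M21 a transcript of 988 codons starts at position 133015248 and a transcript of 445 codons starts at position 133123367. Counts were summed per gene, so the products cannot be told apart. The RefSeq promoter table (GRCm38.p6) held 2 windows of 250 bases before a Ctbp2 start, and they are shown because 1 lies at the start of the ribbon form. Capitals mark GGATTA, the reverse complement of TAATCC, the core letters bound by the photoreceptor factors OTX2 and CRX.
Ctbp2 ribbon start, chr7:133015248-133015497, minus strand: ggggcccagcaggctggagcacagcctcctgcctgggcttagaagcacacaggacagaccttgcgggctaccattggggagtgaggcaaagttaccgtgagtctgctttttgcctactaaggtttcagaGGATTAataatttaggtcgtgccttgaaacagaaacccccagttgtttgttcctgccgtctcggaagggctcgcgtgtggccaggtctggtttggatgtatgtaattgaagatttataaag
Ctbp2 upstream start, chr7:133081861-133082110, minus strand: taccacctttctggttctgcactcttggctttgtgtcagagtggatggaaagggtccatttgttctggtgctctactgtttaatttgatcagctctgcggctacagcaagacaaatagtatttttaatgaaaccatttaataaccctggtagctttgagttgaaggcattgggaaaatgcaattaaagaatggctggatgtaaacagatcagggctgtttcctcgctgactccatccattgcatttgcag
The ribbon-start window held the letters once, 121 bases before the start, and the upstream window did not hold them on either strand. The upstream window is not at the start of the 445-codon transcript, position 133123367. No Ctbp2 transcript of GENCODE M21 starts beside it. So the windows do not compare the starts of the products named above. Of 32817 promoter windows of the same length, 2052 (6.25%) held them on either strand. In all, 9 windows of 7 members were read, and 1 window held the letters. Cacna2d4 and Cabp4 had no entry in this table. The chromosome of Cplx4 was left out when the windows of members were read, so whether Cplx4 has an entry was not tested. The match describes these letters and shows no binding.

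Ctbp2 had the smallest rise of the 8 genes. The P4 libraries held 141 and 154 CPM of it in wild type, and 164, 159 and 149 CPM in Kir2.1. The P8 libraries held 142, 193 and 241 CPM in wild type, and 241, 259 and 224 CPM in Kir2.1. The ages were separate in Kir2.1, while wild-type P8 replicate 1 lay among the P4 libraries. Ctbp2 rose in Kir2.1 retina by 0.61 ± 0.16 (edgeR adjusted p = 0.0210), and this call was lost in 5 of the 6 fits that left out a Kir2.1 library. In wild type the log2 fold change was 0.38 ± 0.18 (edgeR adjusted p = 0.269). On the same strand, 5.05% of its exon bases overlap Fgfr2.

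Bsn (ENSMUSG00000032589; chromosome 9, 108096022 to 108190384, minus strand) encodes Bassoon, which anchors photoreceptor ribbons and also organises conventional active zones. Wild-type retina had 330.1 and 447 CPM at P4, then 492, 467 and 281 CPM at P8. Kir2.1 retina had 379, 307 and 372 CPM at P4, then 324, 301 and 407 CPM at P8. The ages overlapped in both genotypes, and wild-type P8 replicate 3, among the highest libraries for most of the other genes, was the lowest for Bsn. The log2 fold change between the ages was -0.04 ± 0.20 in Kir2.1 (edgeR adjusted p = 0.939) and 0.09 ± 0.23 in wild type (edgeR adjusted p = 0.880).

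Pclo (ENSMUSG00000061601; chromosome 5, 14514918 to 14863459, plus strand) encodes Piccolo, the partner scaffold of Bassoon, with a short form at ribbons. In wild type it went from 660.5 and 844 CPM at P4 to values of 969.8, 1127 and 979 CPM at P8. In Kir2.1 the P4 values were 796, 623 and 747 CPM, and the P8 values 853, 972 and 998 CPM. The ages did not overlap in either genotype, but the shift was small. The log2 fold change was 0.38 ± 0.13 in Kir2.1 (edgeR adjusted p = 0.0606) and 0.45 ± 0.14 in wild type (edgeR adjusted p = 0.108). Its exons overlap 2 antisense genes over 1.91% and 2.21% of their bases, and the strand setting of the counting is not given in the sources used here.

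Cplx3 (ENSMUSG00000039714; chromosome 9, 57599992 to 57606281, minus strand) encodes a complexin of ribbon terminals, a clamp and helper of vesicle fusion that amacrine cells also make. Wild-type libraries held 38.1 and 152 CPM at P4, and 429.8, 231 and 316 CPM at P8. Kir2.1 libraries held 47.1, 59.5 and 61.0 CPM at P4, and 325, 219 and 377 CPM at P8. The ages did not overlap in either genotype. Wild-type P8 replicate 1, the lowest wild-type P8 library for 8 of the genes, was the highest for Cplx3. Cplx3 rose in Kir2.1 retina by 2.46 ± 0.41 (edgeR adjusted p = 0.00205), and in wild type the log2 fold change was 1.78 ± 0.46 (edgeR adjusted p = 0.0522), the closest of the 10 to passing.

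Cplx4 (ENSMUSG00000024519; chromosome 18, 65955722 to 65970237, minus strand) encodes the complexin typical of photoreceptor terminals. Levels at P4 were low, 1.45 and 10.2 CPM in wild type and 2.51, 3.98 and 5.15 CPM in Kir2.1. By P8 they were 10.3, 34.5 and 71.5 CPM in wild type, and 65.7, 61.3 and 73.2 CPM in Kir2.1. The Kir2.1 P8 libraries lay close together, and the wild-type P8 libraries spread over nearly the whole range between the ages. Cplx4 rose in Kir2.1 retina by 4.10 ± 0.69 (17.1-fold, edgeR adjusted p = 0.00220), and in wild type the log2 fold change was 2.73 ± 0.77 (edgeR adjusted p = 0.0688).

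Unc13b (ENSMUSG00000028456; chromosome 4, 43058953 to 43264871, plus strand) encodes a priming factor that makes docked vesicles ready to fuse. For wild type the values were 136 and 254 CPM at P4, and 204, 382 and 544 CPM at P8. For Kir2.1 they were 177, 191 and 177 CPM at P4, and 418, 609 and 464 CPM at P8. Again wild-type P8 replicate 1 lay below wild-type P4 replicate 2. Unc13b rose in Kir2.1 retina by 1.45 ± 0.31 (edgeR adjusted p = 0.00738), and the wild-type log2 fold change was 0.95 ± 0.35 (edgeR adjusted p = 0.155).

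Egflam (ENSMUSG00000042961; chromosome 15, 7206120 to 7398395, minus strand) encodes pikachurin, a cleft protein that binds dystroglycan and aligns bipolar dendrites with the photoreceptor ribbon. The wild-type values were 48.0 and 56.2 CPM at P4, and 36.3, 100.03 and 159 CPM at P8. The Kir2.1 values were 52.4, 75.7 and 58.5 CPM at P4, and 167, 215 and 173 CPM at P8. Wild-type P8 replicate 1 was the lowest of all 11 libraries, and the 3 Kir2.1 P8 libraries were the highest. Egflam rose in Kir2.1 retina by 1.57 ± 0.38 (edgeR adjusted p = 0.0143), and the wild-type log2 fold change was 0.92 ± 0.43 (edgeR adjusted p = 0.259). An antisense gene covers 3.24% of its exon bases.

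**Figure D2:**
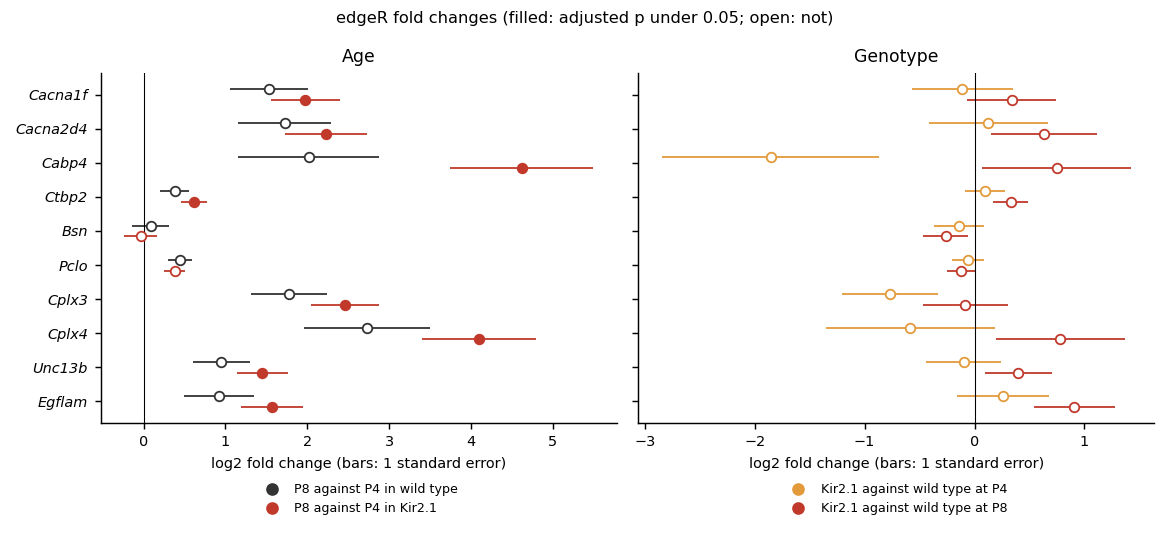
Log2 fold change with its standard error for each of the 10 genes in the age comparisons and the genotype comparisons; filled points have an edgeR adjusted p under 0.05. Filled points occur only in the Kir2.1 age comparison, for 8 genes.

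Counted together in Kir2.1, 9 of 10 genes had P8 values that all lay above the P4 values (19.4% of all genes did), and the median log2 fold change was 1.77, against 0.00 over all genes. DESeq2 called 9, and 21.7% of all genes. Without Kir2.1 P8 replicate 2, edgeR called 7, and 11% of all genes. Without Kir2.1 P4 replicate 1 it called 5, and 9.68% of all genes, and Cacna2d4, Ctbp2 and Egflam no longer passed. In wild type, 7 of 10 had an unadjusted p under 0.05 and all 7 were higher at P8, where 8.74% of all genes were. Non-overlapping ranges were found for 4 of the 10, Cabp4, Cplx3, Cplx4 and Pclo, and for 14.2% of all genes in the same direction. DESeq2 called Pclo, Cplx3, Cplx4 and Unc13b in wild type, and 10.3% of all genes.

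The wild-type result turned on 2 libraries. Without wild-type P4 replicate 2, edgeR called 6 genes, Cacna1f (log2 fold change 2.64), Cacna2d4 (2.81), Cabp4, Pclo (0.63), Cplx3 (3.10) and Cplx4 (4.73), and 7.46% of all genes. Cabp4 then had a count of 0 in the remaining P4 library, and its log2 fold change against a floor of 3 counts in that library was at least 4.63. Without wild-type P8 replicate 1, edgeR called 6 genes, Cacna1f (1.88), Cacna2d4 (2.13), Ctbp2 (0.56), Cplx4 (3.18), Unc13b (1.25) and Egflam (1.31), and 7.09% of all genes. Without both, an alternative chosen after seeing the data, it called 9, and 10.1% of all genes. These libraries are the P4 library with the highest values of 8 of the genes and the P8 library with the lowest values of 7. Leaving out wild-type P4 replicate 2 leaves 1 library at that age, which is then assumed to vary like the other groups.

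**Figure D3:**
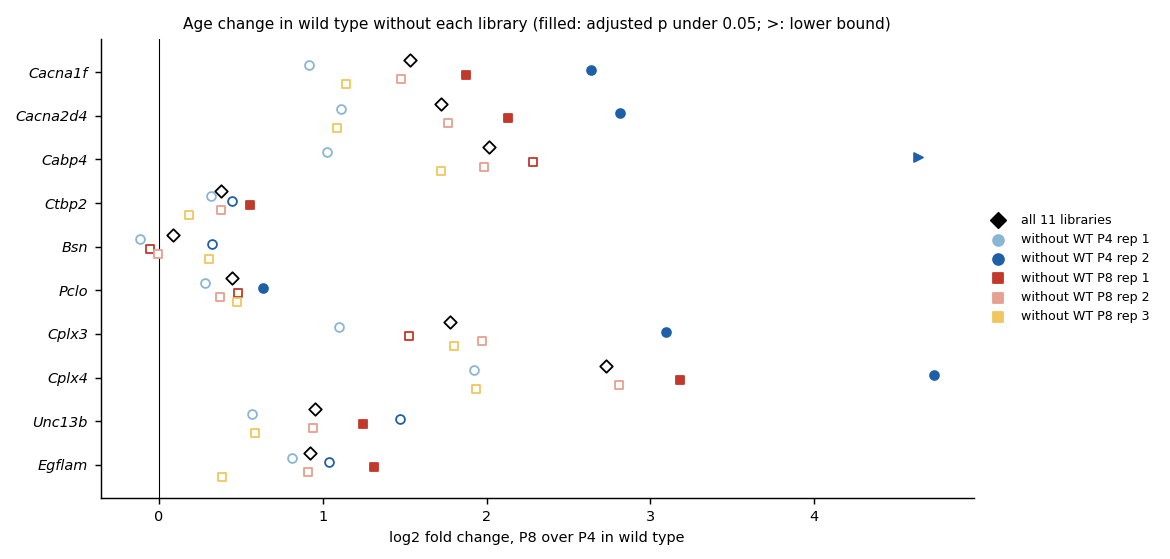
Log2 fold change of P8 over P4 in wild type for each gene with all 11 libraries (diamonds) and without each wild-type library; filled points have an edgeR adjusted p under 0.05, and the triangle is a lower bound. Filled points appear only without P4 replicate 2 or without P8 replicate 1.

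Rod and bipolar markers moved with these values, and markers of other cells did not all do so. Summed rod markers were 207 and 1109 CPM in wild-type P4 replicates 1 and 2, and 420, 663 and 456 CPM in the Kir2.1 P4 replicates. At P8 they were 714, 2872 and 6463 CPM in wild type and 6207, 5880 and 6278 CPM in Kir2.1. So the rod sum of wild-type P8 replicate 1 lay below that of wild-type P4 replicate 2, as did the levels of Cacna1f, Cacna2d4, Ctbp2, Unc13b and Egflam. Summed bipolar markers were 136 and 262 CPM in wild type and 167 to 193 CPM in Kir2.1 at P4, and 314, 506 and 775 CPM and 562 to 641 CPM at P8. Amacrine markers went the other way in wild-type P8, at 3002, 2049.98 and 1068 CPM. Bsn and Cplx3 were also highest in wild-type P8 replicate 1. Cone markers summed to 253 and 385 CPM in wild type and 279 to 424 CPM in Kir2.1 at P4. At P8 they summed to 468, 640 and 285 CPM in wild type and 418 to 538 CPM in Kir2.1. Markers of dividing cells summed to 1213 CPM in wild-type P4 replicate 2 and to 2607 to 3203 CPM in the other P4 libraries, and to 154 to 208 CPM at P8. All 8 fell with age in both genotypes by edgeR. Ganglion cell markers fell too, 9 of 9 in wild type and 8 of 9 in Kir2.1, where 3.58% and 8.73% of all genes fell. In bulk RNA, fewer cells of a type and less RNA per cell cannot be told apart, and the part of cell make-up in these age differences was not tested.

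**Figure D4:**
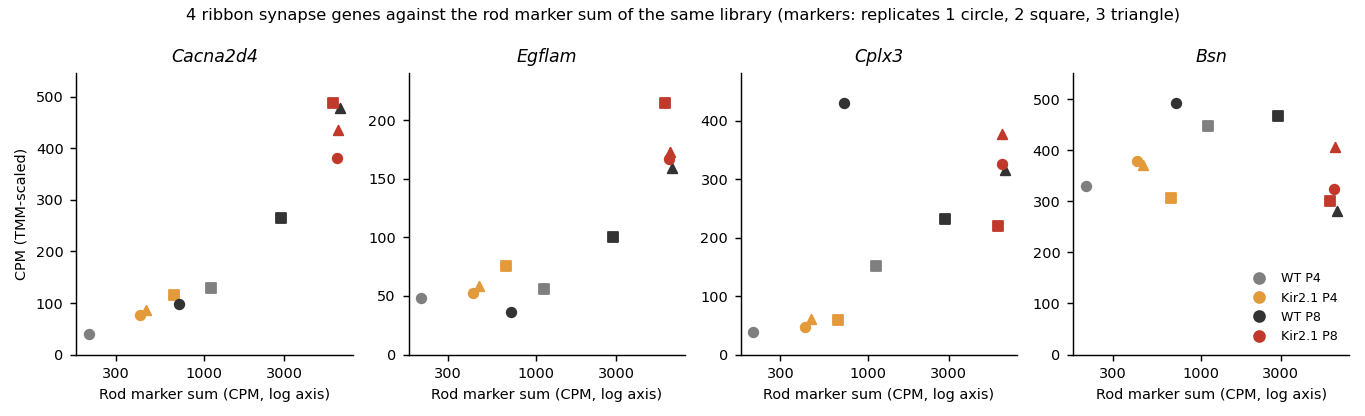
CPM of Cacna2d4, Egflam, Cplx3 and Bsn (linear axis) against the summed CPM of 11 rod markers in the same library (log axis); points are the 11 libraries, coloured by group. Cacna2d4 follows the rod sum from 39.9 to 487 CPM, whereas Cplx3 (429.8 CPM) and Bsn (492 CPM) are highest in wild-type P8 replicate 1, where the rod sum is 714 CPM.

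The genotype comparison asked whether ribbon genes differ in retina whose ganglion cells express Kir2.1. At P4 the log2 fold changes of Kir2.1 over wild type ran from -1.86 (Cabp4) to 0.26 (Egflam), with a median of -0.11 against 0.01 for all genes. Of the 10, 0 had an adjusted p under 0.05 by edgeR or by DESeq2, and 0 had an unadjusted p under 0.05 by edgeR, where 7.22% of all genes did. The smallest edgeR adjusted p was 0.709. The ranges of the genotypes overlapped for each of the 10 genes, and did not for 26.7% of all genes. The wild-type pair itself differed widely, from 19.2 to 63.5 CPM for Cacna1f and from 38.1 to 152 CPM for Cplx3. The P4 median changed sign, to 0.49 when wild-type P4 replicate 2 was left out, and was -0.48 when replicate 1 was.

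At P8, 7 of the 10 log2 fold changes of Kir2.1 over wild type were above 0 (50.5% of all genes were), with a median of 0.37 against 0.00 for all genes. Egflam had the highest, 0.91 ± 0.37 (edgeR adjusted p = 0.700, unadjusted p = 0.0303), followed by Cplx4 at 0.78 ± 0.59, Cabp4 at 0.75 ± 0.68 and Cacna2d4 at 0.63 ± 0.48. The scaffold genes Bsn and Pclo were at -0.26 ± 0.20 and -0.12 ± 0.13. Of the 10, 0 passed by edgeR or by DESeq2, and 1, Egflam, had an unadjusted p under 0.05 by edgeR, where 6.82% of all genes did. Egflam and Cabp4 were higher in all 3 Kir2.1 libraries than in any wild-type library, as were 5.5% of all genes. The values moved both ways with the library left out. Without wild-type P8 replicate 1 the median of the 10 was 0.16, with Egflam at 0.51, Cplx4 at 0.33, Cabp4 at 0.48, Cacna2d4 at 0.23 and Cacna1f at -0.0084. Without wild-type P8 replicate 3 the median was 0.75, Egflam was at 1.45 (edgeR adjusted p = 0.0510), and 256 of all genes passed. Leaving out Kir2.1 P8 replicate 2 gave a median of 0.28 and 0.79 for Egflam. In each of these fits 0 of the 10 passed.

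Cell markers moved in the same P8 comparison. All 11 rod markers had log2 fold changes of Kir2.1 over wild type above 0, with a median of 0.89, and all 8 amacrine markers had values below 0, with a median of -0.59. Of these, 0 had an adjusted p under 0.05 by edgeR, and 0 rod markers and 1 amacrine marker had an unadjusted p under 0.05. Cone markers were above 0 for 3 of 8 and ganglion cell markers for 1 of 9 (medians -0.03 and -0.18). Markers of bipolar cells were for 8 of 9, of Mueller glia for 7 of 7 and of dividing cells for 7 of 8 (medians 0.19, 0.22 and 0.26). In these 5 lists 0 had an unadjusted p under 0.05 by edgeR. The 2 pigment epithelium markers tested were also above 0, with a median of 3.72 and an unadjusted p under 0.05 for both, and their sum was high in Kir2.1 P8 replicate 2 alone. Amacrine markers summed to 1480.5, 886 and 1562 CPM in the Kir2.1 P8 libraries, against 1068 to 3002 CPM in wild type. At P4, 8 of 9 bipolar markers and all 9 ganglion cell markers were below 0, with medians of -1.46 and -1.29, against 0.01 for all genes. Of these, 3 bipolar and 7 ganglion cell markers had an unadjusted p under 0.05, where 7.22% of all genes did, and 0 had an adjusted p under 0.05 by edgeR. Bipolar markers summed to 262 CPM in wild-type P4 replicate 2 and 136 CPM in replicate 1, against 167 to 193 CPM in Kir2.1 P4. Some had few counts, such as Bhlhe23, with 0 and 41 in wild-type P4. All 8 markers of dividing cells were above 0 at P4, with a median of 0.32. The part of these markers in the genotype values of the ribbon genes was not tested.

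The authors' deposited tables give more calls. At P4 they call 1 of the members, Cplx3, with a log2 fold change of -1.06 (adjusted p = 0.00306 in the authors' deposited table), among 2.27% of all genes called. In the authors' deposited table for P8, 3 members are called, among 7.27% of all genes: Cabp4 at 1.48 (adjusted p = 0.0234), Unc13b at 0.76 (adjusted p = 0.0208) and Egflam at 1.46 (adjusted p = 0.0362). The authors' deposited tables name neither their model nor their libraries, and their direction was taken from their names.

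The difference between the genotype effects at the ages was tested as an interaction. Of the 10 genes, 0 passed by edgeR or DESeq2, and 0 had an unadjusted p under 0.05 by edgeR, where 3.09% of all genes did. The smallest unadjusted p was 0.0506, for Cabp4, at 2.60 ± 1.20 on the log2 scale. So the 8 calls in Kir2.1 and 0 in wild type do not show that the age change differed between the genotypes.

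Per kilobase of exon, Pclo was the most abundant of the 10 at P4, at 33.5 ± 5.79 CPM per kb (SD, n = 2) in wild type and 32.1 ± 3.97 (SD, n = 3) in Kir2.1. In wild type its range overlapped that of Cplx3, next in order at 32.2 ± 27.3 CPM per kb. At P8 Cplx3 led, at 110.3 ± 33.7 CPM per kb in wild type and 104 ± 27.3 in Kir2.1 (SD, n = 3 each), and its range did not overlap that of the next gene in either genotype. Behind Cplx3 in Kir2.1 P8 came Cacna2d4, Pclo, Ctbp2, Cplx4 and Egflam, from 45.9 down to 30.2 CPM per kb, and each of these overlapped its neighbour. Unc13b (21.9), Bsn (21.6) and Cacna1f (16.6) followed. In wild-type P8 the genes from Ctbp2 (30.9) to Cacna1f (13.2) all overlapped their neighbours. Cabp4 was last in both P8 groups, at 1.81 ± 0.705 and 3.04 ± 0.443 CPM per kb in wild type and Kir2.1, with no overlap with Cacna1f.

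The genes differed in how closely they moved together over the 11 libraries, which share the age difference and the rod content described above. On log2 CPM with a prior count of 2, Pearson r was 0.98 for Cacna1f with Cacna2d4 and with Unc13b, 0.99 for Cacna1f with Cplx4, and 0.97 for Ctbp2 with Egflam. Cabp4 was at 0.91 with both Cacna2d4 and Unc13b. Cplx3 with Egflam reached 0.52. Bsn had r = 0.39 with Pclo, -0.46 with Ctbp2 and -0.50 with Egflam.

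Among 15980 genes with a mean of at least 1 CPM, those most like each gene were named by Pearson r of log2 CPM over the same 11 libraries. Genes close to Cplx4 included Slc17a7, a vesicular glutamate transporter (0.995), and Stx3, a syntaxin (0.994). For Cacna1f they were Mpp4 (0.994), Rdh12 (0.993) and Pde6b, a subunit of the rod phosphodiesterase (0.992), and for Cacna2d4 the closest was Aipl1 (0.995). Cplx3 stood nearest to BC034090 (0.991), Prox1 (0.988) and Camta2 (0.987). Bsn stood nearest to Mtss1l (0.968), Celf4 (0.947) and Insyn1 (0.944), and Pclo to Eml6 (0.952). These are descriptions across libraries of 4 groups and carry no test.

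Other genes of the synapse were read from 3 lists, 39 genes in all, each of which passed the filter. In Kir2.1 retina 26 of the 39 rose with age and 3 fell, where 7.93% of all genes rose and 8.73% fell: 6 rose and 3 fell (Erc1, Rimbp2, Kif3a) of 12 active zone partners, 9 rose of 12 genes of vesicle fusion and filling, and 11 rose of 15 genes of the cleft and the ON bipolar dendrite. In wild type 3 of the 39 rose, where 0.803% of all genes did, and 0 fell. They included Syp, the vesicle protein synaptophysin (0.83 ± 0.17, edgeR adjusted p = 0.0140), and Gnb5, a G protein subunit (1.10 ± 0.26, edgeR adjusted p = 0.0338). DESeq2 called 16 of the 39 in wild type, and 10.3% of all genes. With no filter on low counts edgeR called 24, and 5.63% of all genes. With a fit of only the groups compared it called 0, and 0.731% of all genes. The edgeR count turned on the library left out: among the wild-type P4 libraries, leaving out replicate 1 gave 1 and replicate 2 gave 19, and among those of P8, leaving out replicates 1, 2 and 3 gave 17, 1 and 2. In Kir2.1 it ran from 19 to 24 with 1 library left out, against 29, the fewest without Kir2.1 P4 replicate 1. By genotype 0 of the 39 passed at either age by edgeR, as for all genes (0%), and 8 at P4 and 4 at P8 had an unadjusted p under 0.05 (7.22% and 6.82% of all genes did). Those counts also turned on single libraries, with 15 and 2 at P4 when wild-type replicates 1 and 2 were left out, and 5 when Kir2.1 replicate 2 was. At P8 they were 1, 2 and 18 when wild-type replicates 1, 2 and 3 were left out in turn, and 2 when Kir2.1 replicate 1 or 2 was. With an adjusted p under 0.05 there were 3 at P4 without wild-type replicate 1 and 1 at P8 without wild-type replicate 3. DESeq2 called 2 at P4, where it called 0.225% of all genes, and 0 at P8. With no filter on low counts edgeR called 8 at P4 and 10 at P8, where 0.928% and 1.22% of all genes passed.

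Paralogues of the members are in these lists. Unc13a, Cplx1 and Cplx2 act mainly at conventional synapses. Unc13a was at 128 to 197 CPM at P4 and 157 to 238 CPM at P8, with a log2 fold change with age of 0.05 ± 0.15 in Kir2.1 (edgeR adjusted p = 0.867), where Unc13b was at 1.45. Cplx1 was at 0.00 ± 0.20 (edgeR adjusted p = 0.992) and Cplx2 at 0.59 ± 0.21 (edgeR adjusted p = 0.0723), where Cplx3 and Cplx4 were at 2.46 and 4.10. Cacna1d, an L-type channel gene that ribbon synapses also use, was at 0.33 ± 0.23 (edgeR adjusted p = 0.391), where Cacna1f was at 1.98. The differences between paralogues were not tested.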

How the data were processed

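RNA-seq libraries of 11 mouse retina samples were read from 1 table each of whole-number counts per Ensembl gene, as deposited by the authors. Per the submitters' processing notes the tools were cutadapt 1.18, STAR 2.5.0c, SAMtools 1.9, bedtools 2.26.0, HTSeq 0.6.1 and DESeq2, with build mm10. Their roles, the annotation and the strand setting are not given in the sources used here. Records that name no gene (74.6% to 79.8% of a library) were left out. The authors also deposited a table per age of Kir2.1 against wild type. Per the file headers its columns are a mean normalized signal, the log2 fold change, its error, a score (fold change over error) and p-values, raw and adjusted. Only its fold changes and adjusted p-values were used.

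The counts were filtered with filterByExpr by group, scaled by TMM and fitted in edgeR 4.0.16 (R 4.3.3) with 4 group means over all 11 libraries. Contrasts were tested by the quasi-likelihood test with Benjamini-Hochberg adjustment over 18188 genes, threshold 0.05. The common biological coefficient of variation was 0.247, with 7 residual degrees of freedom. Library totals of 9362215 to 12478838 counts set the counting error, and a group at no more than 3 counts per library gave a lower bound only. The members, gene lists and tests were chosen with earlier results of these data known. Gene positions are from GENCODE M21 (GRCm38), by ID. All members were named, with the 3 most similar genes each taken by Pearson r, and list genes by their call in wild type and, after their values were seen, the paralogues and the genes that fell in Kir2.1. Some genes that these rules select are not reported here. Alternatives were DESeq2 1.42.0, its size factors in edgeR, no filter, a minimum mean of 1 CPM, a fit of only the groups compared, a replicate block and leaving out each library. The fit was tested on simulated data.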

Additional observations from a re-analysis of the deposited data

How the results depend on the processing

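No member passed by genotype or in the interaction under any alternative except with no filter on low counts, which tested 36534 genes and called 1 member at P4 (Cplx3; 0.928% of all genes), 3 at P8 (Cacna2d4, Cplx4, Egflam; 1.22%) and 2 in the interaction (Cabp4, Cplx4; 0.372%). For age in wild type the members called were 8 with no filter (5.63% of all genes), 4 with DESeq2 (10.3%), 9 without 2 libraries (10.1%) and 0 to 6 when 1 library was left out (0.852% to 7.46%). For age in Kir2.1 they were 9 with no filter (10% of all genes), with DESeq2 (21.7%) and with a fit of only the groups compared (23.2%), and 5 to 8 with 1 library left out (9.68% to 11.9%), the fewest without Kir2.1 P4 replicate 1. The replicate block called 0 members at P4, 0 at P8, 0 for age in wild type, 8 for age in Kir2.1 and 0 in the interaction. Libraries with the same number had deviations that correlated from -0.0757 to 0.139, so the numbers were not taken to pair the samples. Each Kir2.1 library correlated best with its own number at the other age, and this did not hold between the genotypes at P8. The block moved all genes called from 798 to 558 for age in wild type and from 3029 to 2929 in Kir2.1.

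All genes called ranged, for age in wild type (798), from 133 with only the groups compared to 2058 with no filter, with 1580 by DESeq2, 1845 without 2 libraries and 155 to 1357 with 1 left out. For age in Kir2.1 (3029) leaving out 1 gave 1760 to 2162. By genotype no filter gave 339 at P4, 447 at P8 and 136 in the interaction, DESeq2 gave 33 at P4 and 3 at P8, and leaving out 1 gave up to 6, 256 and 1.

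With 1 library left out, the log2 fold change crossed 0 in these cases, and the cause was not tested. At P4 by genotype the ranges were -0.73 to 0.9965 for Cacna1f, -0.49 to 1.22 for Cacna2d4, -2.85 to at least 0.72 for Cabp4, -0.34 to 0.095 for Bsn, -0.23 to 0.13 for Pclo, -1.45 to 0.55 for Cplx3, -1.39 to 1.42 for Cplx4, -0.48 to 0.42 for Unc13b and -0.48 to 0.49 for the median. At P8 they were -0.0084 to 0.73 for Cacna1f and -0.28 to 0.17 for Cplx3. With age Bsn ran from -0.11 to 0.32 in wild type and -0.17 to 0.052 in Kir2.1. In the interaction they were -0.66 to 1.06 for Cacna1f, -0.59 to 1.14 for Cacna2d4, -0.36 to 0.079 for Bsn, -0.25 to 0.10 for Pclo, -0.64 to 1.36 for Cplx3, -0.64 to 2.17 for Cplx4, -0.018 to 0.88 for Unc13b and -0.47 to 0.97 for the median. The interaction of Cabp4 without wild-type P4 replicate 2 has no value, since the lone library was at 0.

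Depth limits Cabp4 and Cplx4 most, which had few counts at P4. The wild-type P4 group has 2 libraries, so its means rest on each.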
